A study of Mus musculus with 11 samples.

Results

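The nuclear-encoded subunits of the mitochondrial respiratory chain and ATP synthase were followed in adrenocortical cells of fetal mice with and without Star. Members were the genes whose symbol begins with Nduf, Uqcr, Cox4, Cox5, Cox6, Cox7, Cox8 or Atp5, together with Sdha, Sdhb, Sdhc and Sdhd, matched through the RefSeq accession of each probe. The gene table holds 96 protein-coding genes of this kind. Probes for 88 of them were on the array, among 17016 named genes, and 85 were tested among 21107 features. These were 35 subunits of complex I, 4 of complex II, 8 of complex III, 16 of complex IV, 17 of complex V and 5 complex I assembly factors of the Ndufaf group. Ndufa4 was counted with complex IV, where its product sits. The other 3 members, Cox4i2, Cox7b2 and Cox8c, were not well above background on any array.

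The groups were 7 wild-type mice (Star+/+) and 4 knockout mice (Star-/-), all fetuses of E17.5 or E18.5 (embryonic days). In every mouse the cells carried eGFP, a green fluorescent protein, by which they had been sorted from the dissociated adrenal gland. Which promoter drives eGFP is not stated in the labels. Each array held linearly amplified RNA of 1 mouse. The labels give all 4 knockout mice as male, wild-type mice 1, 2 and 7 as male and wild-type mice 3 to 6 as female. Slide 1 carried knockout arrays 1 and 2 beside wild-type arrays 1 and 2. Slide 2 carried knockout arrays 3 and 4 beside wild-type array 3, and the remaining wild-type arrays, 4 to 7, were on slide 3. The fitted differences therefore compare genotypes within slides 1 and 2, and slide 3 entered only their estimate of the spread. Level ranges, summed levels and counts of genes with separate groups use all 7 wild-type arrays. They therefore also compare across slides, and slide 3 held wild-type arrays only. The product of Star, steroidogenic acute regulatory protein, delivers cholesterol to the inner mitochondrial membrane. The design set wild-type against knockout to ask how gene expression of these steroid-producing cells differs without it.

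Complexes I to IV pass electrons from NADH and succinate to oxygen, complexes I, III and IV move protons out of the mitochondrial matrix, and complex V, the ATP synthase, lets them flow back to make ATP. Complex II is encoded by nuclear genes alone, whereas complexes I, III, IV and V also contain subunits of the mitochondrial genome, which no probe matched here measured. In steroid-producing cells mitochondria also house the cholesterol side-chain cleavage enzyme, and the membrane potential made by the respiratory chain is needed for Star to act. Nuclear genes for these subunits are known to share promoter motifs bound by NRF1, ETS-family factors, YY1 and the ERR receptors.

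The members' promoters were searched for these motifs. RefSeq windows of 300 bases around the start were found for 73 of the 88 members and for 27025 genes in all. Both strands were searched for 4 fixed motifs, none of which contains another. The palindromic NRF1 motif stood in 8.22% of the members and in 1.07% of all genes. CCGGAAG, an ETS motif, stood in 24.7% of members and 9.93% of all genes. AAGATGGCG, a YY1 motif, stood in 9.59% of members and 1.64% of all genes. TCAAGGTCA, a site shape bound by ERR receptors and by the adrenal factor SF-1, stood in 2.74% of members and 0.466% of all genes. The members' windows had a median GC content of 56.8%, against 52.4% over all windows. These matches describe sequence and do not show binding. The promoters below, read 5′ to 3′ on the gene's strand, run from 250 bases before to 30 bases after the start in GRCm38.p6. They belong to members described further on that hold motifs, and capitals mark the motifs. The same stretch of Ndufa9, also described further on, held 0 of the 4 motifs and is not printed. The full window of 300 bases of Ndufa9 does hold a YY1 motif, which this shorter stretch does not contain whole. Ndufa9 is therefore counted among the members with that motif. Cox6a1, the widely expressed isoform of a complex IV subunit, lies on the minus strand at chr5:115348929-115349208 and holds an NRF1 and an ETS motif. Ndufs3, a core subunit of complex I, lies on the minus strand at chr2:90904692-90904971 and holds 2 ETS motifs in opposite orientation. Atp5j, coupling factor 6 of the ATP synthase, lies on the minus strand at chr16:84834947-84835226 and holds a YY1 and an ETS motif in 1 of its 2 windows, the one printed.
Cox6a1: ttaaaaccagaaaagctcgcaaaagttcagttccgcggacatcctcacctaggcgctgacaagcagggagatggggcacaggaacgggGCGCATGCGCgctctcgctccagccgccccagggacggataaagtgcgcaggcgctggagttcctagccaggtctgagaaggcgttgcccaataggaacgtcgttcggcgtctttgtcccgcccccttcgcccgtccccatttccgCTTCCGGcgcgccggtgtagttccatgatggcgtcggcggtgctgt
Ndufs3: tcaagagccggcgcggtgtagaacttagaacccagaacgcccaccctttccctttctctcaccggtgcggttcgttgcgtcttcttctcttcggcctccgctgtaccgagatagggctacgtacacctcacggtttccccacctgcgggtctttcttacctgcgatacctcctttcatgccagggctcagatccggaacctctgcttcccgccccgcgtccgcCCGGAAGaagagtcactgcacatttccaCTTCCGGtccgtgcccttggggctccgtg
Atp5j: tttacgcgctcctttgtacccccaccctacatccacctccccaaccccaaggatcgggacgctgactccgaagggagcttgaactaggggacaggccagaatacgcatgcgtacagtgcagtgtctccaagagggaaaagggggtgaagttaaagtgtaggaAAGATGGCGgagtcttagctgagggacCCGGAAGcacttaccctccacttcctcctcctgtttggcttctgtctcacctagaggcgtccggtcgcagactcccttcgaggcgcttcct

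Wild-type array 3 stood apart from the others, and it is the only wild-type array of slide 2. Its 75th percentile of signal was the lowest of the 11 arrays, at 115, and its median correlation with the other arrays was the lowest, at 0.831. The number of probes well above background ran from 19071 to 26416, and wild-type array 3 had 19418. Star, the check of the labels, had levels of 3.21 to 7.86 in wild-type and 1.58 to 3.27 in knockout arrays, and its fitted difference was −4.70 ± 0.93 (SE; limma adjusted p = 0.0565). All levels are log2 processed signal minus the 75th percentile of the array, so that 0 is that percentile, and levels of different probes are not compared. All differences are knockout minus wild-type on the log2 scale with the standard error of the fit. In sorted bulk RNA, fewer cells of a type and less RNA per cell cannot be told apart.

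No member passed the threshold of 0.05 for the adjusted p, where 0.829% of all features did, 0.227% as lower and 0.602% as higher. Most members had lower fitted levels in the knockout. The fitted difference was below 0 for 74 of 85 members, against 56.9% of all features and 60.5% of the brightest 25% of features by mean level, and its median was −0.75 (quartiles −0.96 and −0.43) against −0.16 over all features. Of the 85 members, 72 lay among that brightest 25%, whose own median was −0.21. At an unadjusted p under 0.05 in limma, 25 members were lower, or 29.4%, against 10% of features and 14.2% of the brightest 25%, and 2 were higher, Cox6a2 and Atp5d, against 8.37% of features.

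The size of this difference rested on wild-type array 3. Within slide 1, which lacks it, the members' median was −0.20, against −0.06 over all features, with 66 of 85 lower. Within slide 2 it was −1.58, against −0.33 over all features, with 71 lower. The 58 members lower in both slides made up 68.2% of those tested, where 37.5% of all features and 39.5% of the brightest 25% were lower in both. A test of the difference between the slides passed an adjusted p of 0.05 for 16 members, against 7.97% of features, and an unadjusted p under 0.05 for 57, against 31.9%. Leaving out wild-type array 3 left the slide 1 median of −0.20, since slide 2 then held 1 genotype. With the labelled sex as a further term the median was −0.40. Slide 1 held male mice only, whereas slide 2 set male knockout mice against the female wild-type mouse 3. Within slide 2, genotype, sex and that array therefore cannot be told apart. Wild-type array 3 held the highest of the 11 levels for 55 members, or 64.7%, and the lowest for 4. It held the highest for 27.2% of all features and 37.5% of the brightest 25%.

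Array by array, the members' median deviation from their own median over all arrays was 1.19 on wild-type array 3 and 0.57 on wild-type array 4. On the other wild-type arrays it lay between −0.27 and 0.14. The knockout arrays lay at −0.10, 0.00, −0.35 and −0.13. Wild-type arrays 3 and 4 were thus the high ones. Wild-type arrays 2 and 5, at 0.13 and 0.14, lay slightly above all knockout arrays, and wild-type arrays 1, 6 and 7 lay within the knockout range.

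**Figure D1:**
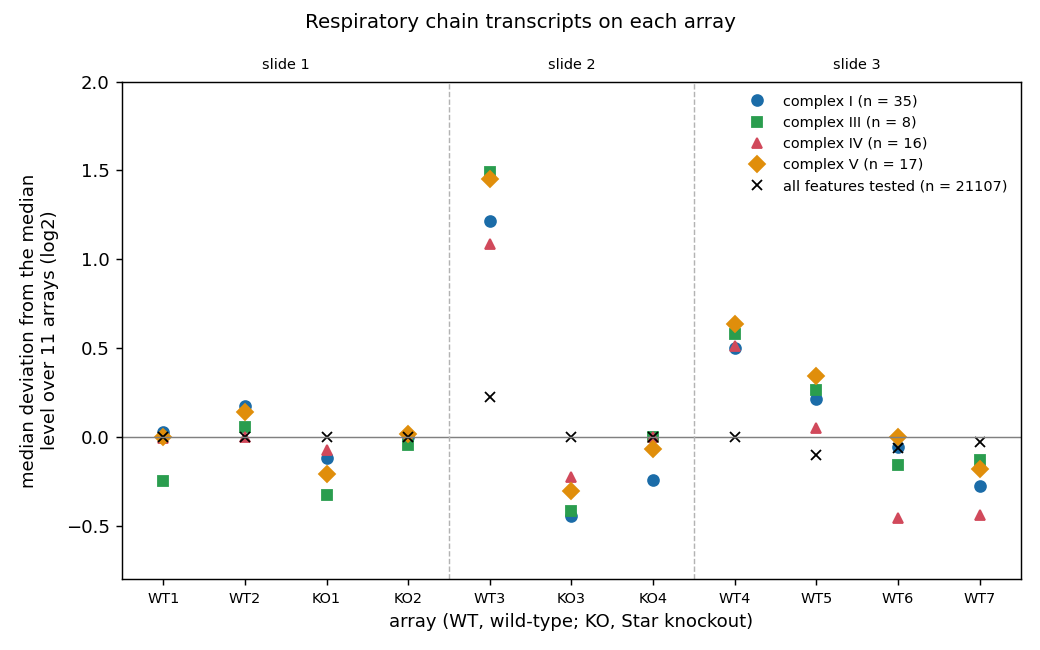
Median deviation of the tested subunits of complexes I, III, IV and V, and of all features, from each gene's own median over the 11 arrays (log2), by array; WT is wild-type, KO is Star knockout, and dashed lines part the slides. Wild-type array 3 is the highest for all 4 complexes, at 1.09 to 1.49, and the knockout arrays lie between −0.45 and 0.03.

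Markers of other cells differed between the genotypes on the same arrays. The summed level of 19 macrophage markers ran from 5.80 to 8.24 in wild-type and from 9.75 to 10.4 in knockout arrays, all 19 were on the array and tested, and 18 were higher in every knockout array than in any wild-type array, against 4.1% of features. Past the threshold were 3 of them, Gpnmb, Trem2 and Spi1, where 0.602% of all features passed as higher. Cd163, the marker not among the 18, went the opposite way, with a difference of −4.06 (limma adjusted p = 0.193). Its levels ran from −4.96 to −1.14 in knockout and from −1.70 to 3.03 in wild-type arrays. The summed level of 10 chromaffin markers, which mark cells of the adrenal medulla, ran from 6.68 to 10.9 in wild-type and from 2.50 to 7.22 in knockout arrays. The 10 steroidogenic markers, of the cell type the labels name, were all well above background on some arrays and had a median difference of −1.37, and their summed level overlapped, at 7.26 to 10.8 against 7.45 to 9.16. Star, the targeted gene, is among these 10 and enters both the median and the summed level. The part of these markers in the members' differences was not tested.

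Complex I, which takes electrons from NADH, had 33 of 35 subunits lower in the fit and a median of −0.79, or −0.31 within slide 1. All 4 knockout arrays lay below all 7 wild-type arrays for 7 subunits, 20.0% of the complex, where 3.22% of all features and 7.11% of the brightest 25% did. Of these, Ndufa5, Ndufa9, Ndufb9, Ndufb11 and Ndufs3 were chosen for description after their values were seen. Ndufs1, the largest core subunit, with iron-sulfur clusters on the path of the electrons, had levels of 4.57, 4.63, 4.32 and 4.60 in the knockout arrays. In the wild-type arrays its lowest level was 4.64, its median 5.15 and its highest 6.93, on array 3. The groups were separate by a very narrow margin at their nearest arrays. Its difference was −1.40 ± 0.42 (adjusted p = 0.141), with −0.69 within slide 1 and −2.47 within slide 2.

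Ndufa9, a subunit of the arm that bears the quinone site, had levels of 4.79, 5.17, 4.88 and 4.83 in knockout arrays. The wild-type levels ran from 5.33 over a median of 5.89 to 6.16. Wild-type array 3, at 5.89, was not the highest here, and the groups did not overlap. Its difference was −0.82 ± 0.32 (adjusted p = 0.228), with −0.67 within slide 1 and −1.03 within slide 2. Ndufs3, whose promoter is printed above, had knockout levels of 5.54, 5.71, 5.16 and 5.60 and wild-type levels from 5.87 over 6.14 to 6.69. Knockout array 3 was the lowest, and all 4 knockout arrays lay below the wild-type arrays. Ndufs3 differed by −0.79 ± 0.32 (adjusted p = 0.236), with −0.44 within slide 1.

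Ndufb11, an accessory subunit of the membrane arm, had knockout levels of 6.93, 7.26, 6.93 and 7.21 and wild-type levels from 7.56 over 7.70 to 8.31. Its difference was −0.79 ± 0.31 (adjusted p = 0.230), with −0.50 within slide 1. Ndufb9 and Ndufa5, further accessory subunits, differed by −0.72 ± 0.33 and −1.31 ± 0.48, and Ndufb9 by −0.42 within slide 1. For Ndufa5 the difference within slide 2, −2.62, exceeded that within slide 1, −0.43, and the test between slides passed (adjusted p = 0.0451). Ndufa8, an accessory subunit with cysteine motifs, had knockout levels of 5.68, 5.73, 5.91 and 5.89, below all wild-type levels, which ran from 6.05 over 6.52 to 8.21. Its difference of −1.16 ± 0.41 was −0.39 within slide 1 and −2.31 within slide 2, and the test between slides passed (adjusted p = 0.0458).

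Ndufc1, a small membrane-arm subunit, had the most negative difference of all members, −1.60 ± 0.48 (adjusted p = 0.143). Within slide 1 its difference was −0.71 and within slide 2 −2.94, and the test between slides passed (adjusted p = 0.0428). Its knockout levels were 5.68, 5.74, 5.83 and 6.17, and its wild-type levels ran from 6.08 to 8.94, so that knockout array 4 lay among the wild-type arrays. At the other end stood Ndufa10, with a difference of 0.19 ± 0.56 and wild-type levels from −0.48 to 1.83 that enclosed all knockout levels. The 7 nuclear core subunits, which hold the flavin, the iron-sulfur clusters and the quinone site, had a median of −0.52. They were lower in slide 1 in 7 of 7 cases and in slide 2 in 4 of 7. The 5 Ndufaf assembly factors, which build the complex and are not part of it, had a median of −0.46, or −0.39 within slide 1, with 4 lower, and 0 of the 5 had separate groups.

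**Figure D2:**
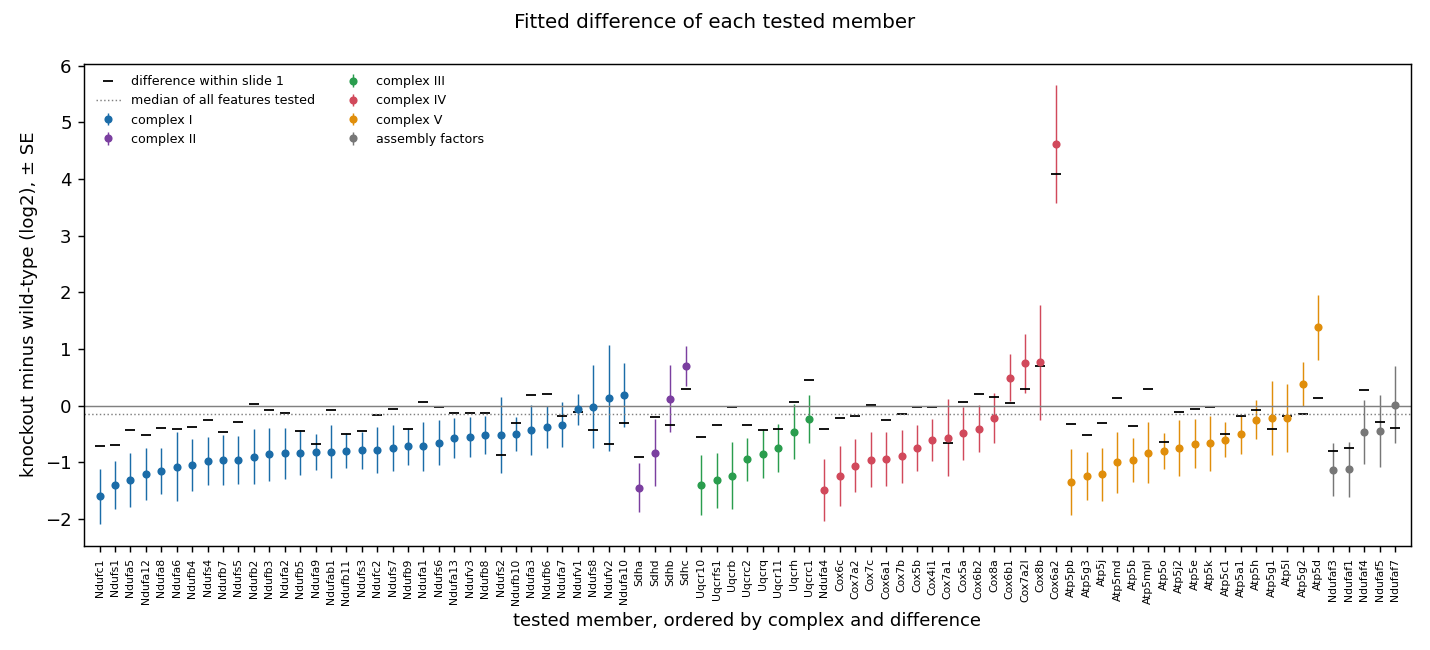
Fitted difference, knockout minus wild-type (log2, points, with bars of 1 SE), of the 85 tested members ordered by complex and size; black dashes give the difference within slide 1 and the dotted line the median of all features, −0.16. Most points lie below 0, the slide 1 dashes lie nearer to 0, and Cox6a2 stands alone at 4.62.

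Complex II, succinate dehydrogenase, is the only one of the 5 that also belongs to the citric acid cycle, and its 4 subunits did not share a direction. Sdha, the flavoprotein that oxidises succinate, had knockout levels of 0.18, 0.35, 0.45 and 0.31. The wild-type levels of Sdha ran from 0.10 over 1.03 to 2.64, and wild-type arrays 5 and 6 lay below or among the knockout arrays. The difference was −1.45 ± 0.43 (adjusted p = 0.140), with −0.91 within slide 1, the most negative there of the members. Sdhd, a membrane anchor, differed by −0.83 ± 0.59, and by −0.20 within slide 1.

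Sdhb, the iron-sulfur subunit, differed by 0.12 ± 0.59 and changed sign within slide 1, at −0.34. Sdhc, the other membrane anchor, differed by 0.70 ± 0.35, and by 0.29 within slide 1. Its level on wild-type array 3 was 0.92, below all other arrays, where it ran from 2.13 to 3.47. The median of the complex was −0.36, with 2 lower and 2 higher.

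Complex III, which passes electrons from ubiquinol to cytochrome c, had all 8 subunits lower in the fit, with a median of −0.89. Within slide 1 the median was −0.34 with 6 of 8 lower, and 0 of 8 had separate groups. Uqcrfs1, the Rieske iron-sulfur protein, had knockout levels of 4.47, 4.86, 4.41 and 4.50. The wild-type levels ran from 4.79 to 7.22, and only knockout array 2 reached into them. Its difference was −1.31 ± 0.49 (adjusted p = 0.208), with −0.35 within slide 1 and −2.76 within slide 2, and the test between slides passed (adjusted p = 0.0451).

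Uqcr10, a small subunit near cytochrome c1, had knockout levels of 6.90, 7.23, 6.89 and 7.31 and wild-type levels from 6.70 to 9.77, and differed by −1.40 ± 0.54, and by −0.55 within slide 1. The core proteins Uqcrc2 and Uqcrc1 differed by −0.95 ± 0.38 and −0.23 ± 0.43, and Uqcrc2 by −0.34 within slide 1. Uqcrc2 had knockout levels of 5.99, 6.42, 6.21 and 6.34, of which only array 2 lay above the lowest wild-type level, 6.39. Uqcrc1 was higher in the knockout within slide 1, at 0.46, and its other probe gave the opposite direction to the probe used.

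Complex IV, cytochrome c oxidase, held both the member with the highest difference and some of the most negative ones. Of its 16 tested subunits 12 were lower, with a median of −0.59, but within slide 1 the median was −0.01 with 8 of 16 lower. Ndufa4, assigned to this complex, had knockout levels of 5.24, 5.74, 5.57 and 5.90 against wild-type levels from 5.78 over 6.22 to 8.83, and differed by −1.49 ± 0.55 (adjusted p = 0.207). Cox6c, a small membrane subunit, differed by −1.24 ± 0.53. Its knockout levels of 6.80, 7.00, 7.35 and 7.51 overlapped the wild-type levels, which reached 10.2 on array 3 and 7.10 at the lowest. Wild-type array 3 was the highest for both Ndufa4 and Cox6c, and both passed the test between slides (adjusted p = 0.0424 and 0.0357). Within slide 1 they differed by −0.42 and −0.22.

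Several subunits of this complex exist as a widely expressed and a tissue-specific isoform, and the fitted differences of the COX6A isoforms had opposite signs. Cox6a2, the heart and skeletal muscle isoform, had levels of 3.02, 3.31, 2.68 and 3.81 in knockout arrays 1 to 4. In wild-type arrays 1 to 7 its levels were −1.48, −0.38, −2.16, −0.06, −4.63, −4.51 and −4.05. Every knockout array was above every wild-type array, and Cox6a2 was the only member of which this held, where it held for 4.1% of all features. The probe was well above background on 5 of 7 wild-type and 4 of 4 knockout arrays. Its difference was 4.62 ± 1.03, a 24.5-fold higher fitted level (unadjusted p = 0.00126, adjusted p = 0.0776), with 4.09 within slide 1 and 5.40 within slide 2. Across 28 alternative settings it was higher in 28 and passed in 8, among them the fit without wild-type array 4, with adjusted p from 0.000295 to 0.667, the latter without wild-type array 3.

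Other muscle genes were not separate between the genotypes. Of 8 fixed muscle markers on the array 6 were tested, 0 passed, and 0 were under an unadjusted p of 0.05 in limma. Their summed level ran from 0.11 to 2.29 in wild-type and from 0.49 to 1.76 in knockout arrays. Mb, myoglobin, was not well above background on any array, and Acta1, skeletal actin, had the largest difference of the list, 1.14 (adjusted p = 0.432). Of the 19 macrophage markers given above 18 were separate between the genotypes in the same direction as Cox6a2, and Cd163 was not. The part of these markers in the difference of Cox6a2 was not tested.

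Cox6a1, the widely expressed partner, had knockout levels of 8.62, 8.89 and 8.70, with the value of array 4 left out as an outlier spot. Its wild-type levels ran from 8.87 upwards, with array 3 the highest, and knockout array 2 reached into them. The difference was −0.94 ± 0.48 (adjusted p = 0.336, 3 knockout arrays), with −0.25 within slide 1. Among the other pairs, Cox7a1, the muscle isoform of COX7A, and Cox7a2, its widely expressed isoform, differed by −0.57 ± 0.68 and −1.06 ± 0.46. Cox7a2l, a relative that joins complexes III and IV into supercomplexes, differed by 0.74 ± 0.52. Cox8b, the muscle isoform of COX8, differed by 0.76 ± 1.01 and was well above background on 5 of 11 arrays, and Cox8a, the widely expressed isoform, by −0.22 ± 0.44. Cox6b1 and the testis isoform Cox6b2 differed by 0.49 ± 0.41 and −0.41 ± 0.42. Cox4i1, the widely expressed COX4 isoform, differed by −0.61 ± 0.37 and by −0.02 within slide 1. Cox7b, whose second isoform Cox7b2 was not well above background, differed by −0.89 ± 0.47. Within slide 1 the differences of Cox7a2, Cox7b, Cox7a2l and Cox6b1 were −0.19, −0.15, 0.29 and 0.038, and Cox7a2 passed the test between slides (adjusted p = 0.0480). Apart from Cox6a2, no isoform of these families had separate groups.

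**Figure D3:**
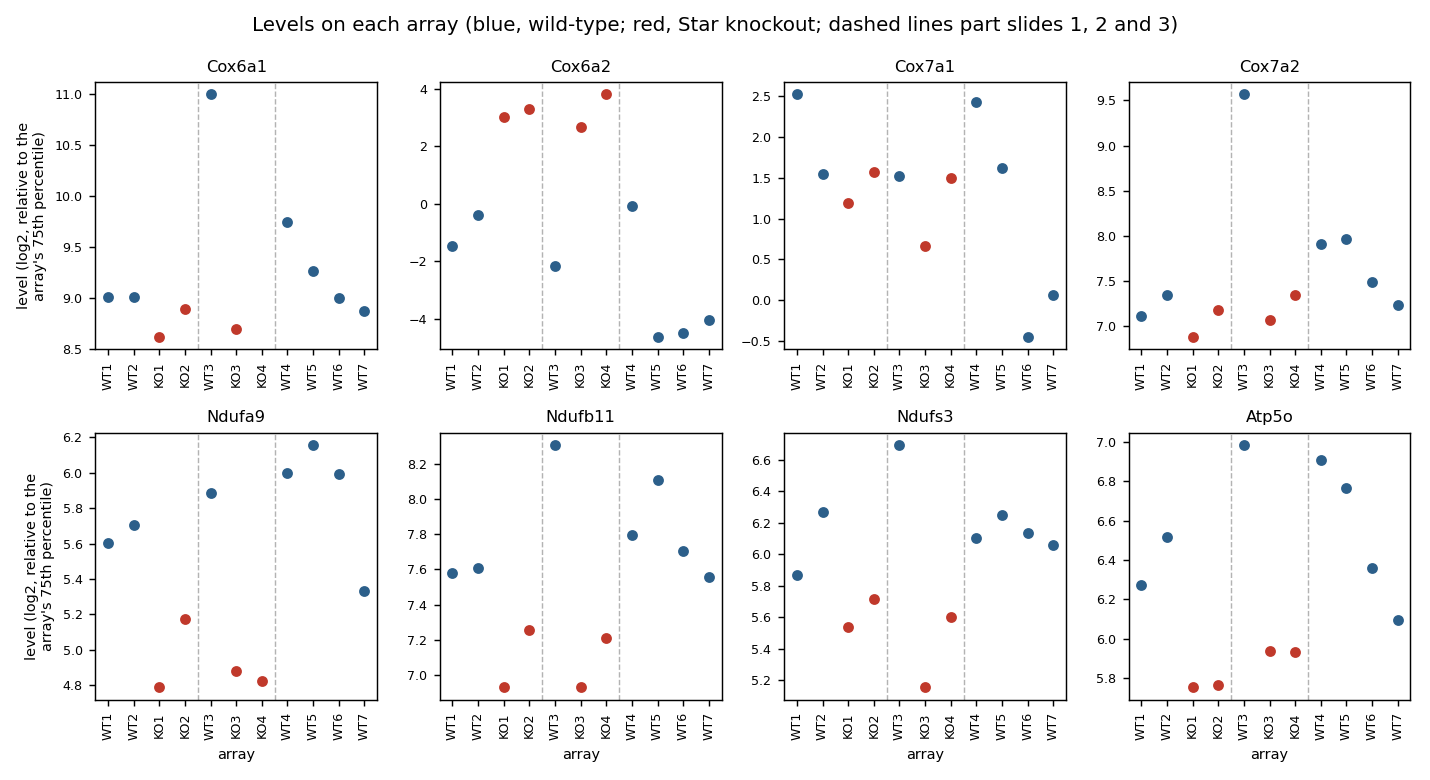
Level on each of the 11 arrays (log2, relative to the 75th percentile of the array) for 8 members, wild-type in blue and Star knockout in red, with dashed lines between slides. Cox6a2 lies at 2.68 to 3.81 in the knockout and at −4.63 to −0.06 in the wild-type arrays; Ndufa9, Ndufb11, Ndufs3 and Atp5o are lower in every knockout array; Cox6a1 has no value for knockout array 4.

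Complex V, the ATP synthase, had 15 of 17 subunits lower, with a median of −0.67, or −0.18 within slide 1. Its 5 F1 subunits, which carry out the synthesis, had a median of −0.60, or −0.18 within slide 1, with 4 lower. These 4 included the catalytic beta subunit, whose 2 other probes gave the opposite direction to the probe used. Knockout arrays lay below all wild-type arrays for 3 subunits, 17.6% of the complex, against 3.22% of all features and 7.11% of the brightest 25%. Atp5o, the stalk subunit OSCP that ties F1 to the membrane sector, had knockout levels of 5.75, 5.76, 5.93 and 5.93 and wild-type levels from 6.09 over 6.52 to 6.99. The knockout arrays were tightly grouped below all wild-type arrays. Its difference was −0.80 ± 0.32 (adjusted p = 0.231), with −0.64 within slide 1 and −1.05 within slide 2.

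Atp5j, coupling factor 6, whose promoter is printed above, had knockout levels of 6.87, 7.21, 6.97 and 7.09. Its wild-type levels ran from 7.23 over 7.45 to 9.60, so the groups were separate by a narrow margin, and the difference was −1.21 ± 0.47 (adjusted p = 0.223). Within slide 1 it was −0.30 and within slide 2, where array 3 is the wild-type array, −2.57, and the test between slides passed (adjusted p = 0.0438). Atp5c1, the central rotor shaft of F1, was chosen after its values were seen. It had knockout levels of 7.48, 7.44, 7.63 and 7.32 below wild-type levels of 7.68 to 8.34, with a difference of −0.60 ± 0.31, or −0.50 within slide 1. Atp5pb, the peripheral stalk subunit b, differed by −1.34 ± 0.58, but its wild-type levels from 3.88 to 7.95 enclosed all the knockout levels. Within slide 1 it differed by −0.33, and the test between slides passed (adjusted p = 0.0419).

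The 3 genes for the identical proton-carrying c subunit, Atp5g1, Atp5g2 and Atp5g3, did not share a direction in the fit, but all 3 were lower within slide 1. Atp5g3 differed by −1.24 ± 0.42 (adjusted p = 0.181), or −0.52 within slide 1, with knockout levels of 7.55, 7.88, 7.73 and 8.22, of which only array 4 was above the lowest wild-type level of 8.19. Atp5g1 differed by −0.22 ± 0.65 and Atp5g2 by 0.37 ± 0.39, but within slide 1 by −0.41 and −0.14. The level of Atp5g2 on wild-type array 3, 5.74, was its lowest of all arrays. Atp5d, the delta subunit of F1, had the highest difference of the complex, 1.39 ± 0.57 (adjusted p = 0.244). Its level on wild-type array 3 was 1.61, while the other 10 arrays lay between 4.75 and 5.81. Within slide 1 the difference was 0.14, and the test between slides passed (adjusted p = 0.0390).

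**Figure D4:**
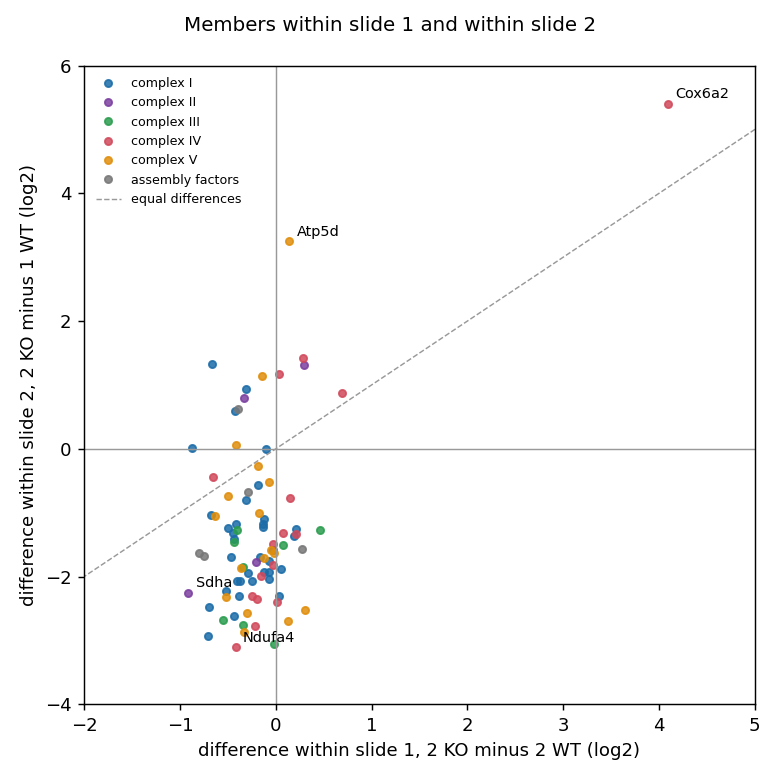
Difference within slide 1 (2 knockout minus 2 wild-type arrays) against difference within slide 2 (2 knockout minus wild-type array 3) for the 85 tested members, log2, coloured by complex; the dashed line marks equal differences. Most points lie far below the line, at a median of −0.20 on the horizontal and −1.58 on the vertical axis, and Cox6a2 is high on both.

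Over all complexes 10 members were lower in every knockout array than in any wild-type array, 11.8% of those tested against 3.22% of features, and among the brightest 25% of features that share was 7.11%. With wild-type array 3 set aside there were 11, or 12.9%, against 3.75% of all features and 7.92% of the brightest 25%. In the other direction Cox6a2 remained the only one, where 5.2% of features were higher in this way. More than 1 probe existed for 17 tested members, and for 13 of them the probes gave 1 direction.

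Other mitochondrial gene lists also had medians below that of all features, and 0 of their genes passed the threshold in limma. Their counts are set against the 10% of all features that were lower at an unadjusted p under 0.05 and the 3.22% with knockout arrays below all wild-type arrays. Among the brightest 25% of features these shares were higher, at 14.2% and 7.11%. The 77 mitochondrial ribosomal proteins, which make the subunits encoded in mitochondria, had a median of −0.70 and of −0.41 within slide 1, where 74 of 77 were lower. Of them 26, or 33.8%, were lower at an unadjusted p under 0.05 and 11, or 14.3%, were lower in every knockout array. Mrps25 had the most marked ratio of difference to error, −1.24 ± 0.37 (adjusted p = 0.142), with −0.75 within slide 1. The 33 tested assembly factors outside the rule had a median of −0.65 and of −0.21 within slide 1, with 7, or 21.2%, lower at an unadjusted p under 0.05 and 2, or 6.06%, lower in every knockout array. Cox15, which makes the heme A of complex IV, was lower in every knockout array, at 0.67 to 1.19, than in any wild-type array, and differed by −2.12 ± 0.51 (adjusted p = 0.0899). Without wild-type array 3 the difference of Cox15 was −1.08, the value within slide 1, against −3.69 within slide 2, and the test between slides passed (adjusted p = 0.0369).

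The 18 citric acid cycle genes had a median of −0.63 and of −0.52 within slide 1, with 16 lower, 4 of them, or 22.2%, at an unadjusted p under 0.05, and 2, or 11.1%, lower in every knockout array. Pdhx, a component of pyruvate dehydrogenase, and Mdh2, mitochondrial malate dehydrogenase, differed by −1.85 ± 0.58 and −0.94 ± 0.39, and by −0.91 and −0.43 without wild-type array 3. The 19 import, porin and chaperone genes had a median of −0.58 and of −0.32 within slide 1, with 3, or 15.8%, lower at an unadjusted p under 0.05. The chaperonin Hspd1, 5.26% of the list, was lower in every knockout array (−1.82 ± 0.49, adjusted p = 0.119), with −1.23 within slide 1. The 15 electron carriers and subunits outside the rule had a median of −0.80 and of −0.37 within slide 1, with 10 lower, 5 of them, or 33.3%, at an unadjusted p under 0.05, and 0 lower in every knockout array. Among them Coq8a, needed to make ubiquinone, differed by −1.43 ± 0.37 (adjusted p = 0.107). The 21 tested regulators of mitochondrial gene expression had a median of −0.51 and of −0.07 within slide 1, close to the −0.06 of all features there. Of them 2, or 9.52%, were lower at an unadjusted p under 0.05, a share near that of all features, and 1, or 4.76%, was lower in every knockout array. The 4 genes of the mitochondrial P450 electron chain, which serves steroid synthesis, had a median of −1.49, and Fdxr, ferredoxin reductase, differed by −1.53 ± 0.87. None of these 4 was under an unadjusted p of 0.05.

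Of the lists outside mitochondria, the 17 glycolysis genes had a median of −0.01, but of −0.24 within slide 1, near the −0.20 of the respiratory chain members there. Of the glycolysis genes 0 passed the threshold in limma. At an unadjusted p under 0.05, where 10% of all features were lower and 8.37% higher, 1 was lower and 1 higher. These were Pfkp, a phosphofructokinase, at −2.45 ± 0.58 (adjusted p = 0.0868), and Pkm, pyruvate kinase, at 0.95 ± 0.36 (adjusted p = 0.218). Without wild-type array 3 they were at −1.27 and 0.60. The 14 hypoxia response genes had a median of −0.11, or 0.17 within slide 1, with 0 past the threshold in limma. In each direction 1 was at an unadjusted p under 0.05, beside the same shares of all features. The 21 tested subunits of the vacuolar proton pump, a rotary relative of complex V that acidifies lysosomes, had a median of 0.75, and 0.57 within slide 1. Of them 16 were higher, 7, or 33.3%, had higher levels in every knockout array, against 4.1% of features, and 1 passed the threshold, against the 0.602% of features that passed in this direction. That gene was Atp6v0d2. None of the 7 wild-type arrays measured it well above background, so its knockout level is given as at least 9.98-fold higher, a bound taken against the lowest signal well above background on each wild-type array (adjusted p = 0.0046). Atp6v1a, a catalytic subunit of the pump, had levels of 0.64, 0.42, 1.71 and 1.75 in knockout and −0.70 to 0.33 in wild-type arrays, and differed by 1.66 ± 0.37 (adjusted p = 0.0753). Of the 19 macrophage markers given above 18 were higher on the same arrays, and their part in these levels was not tested.

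**Figure D5:**
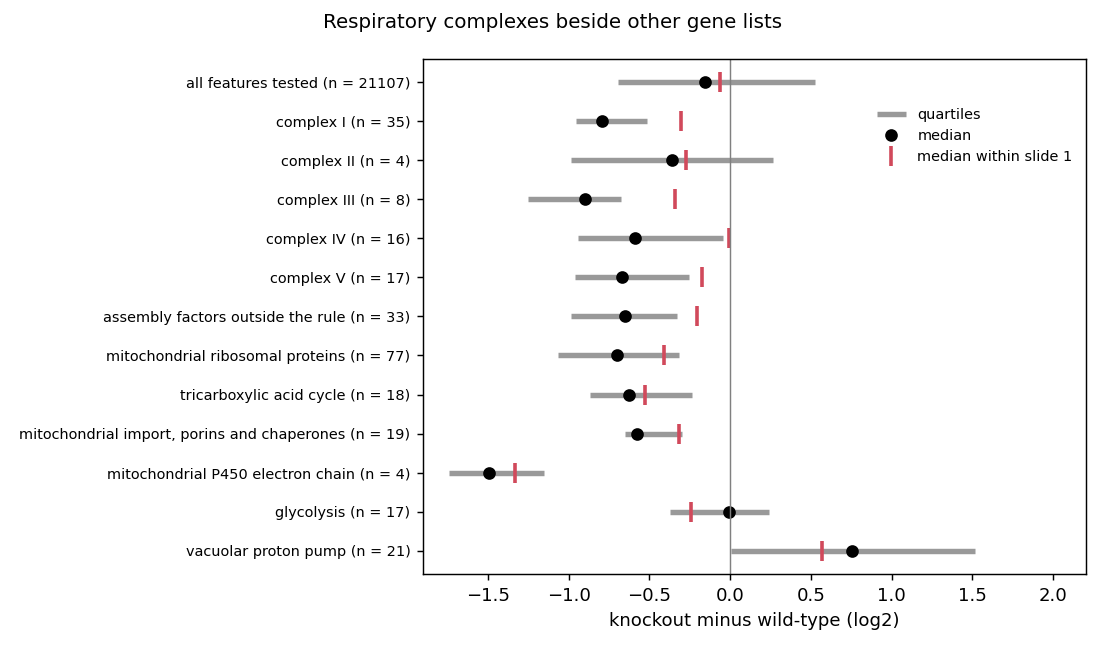
Median (point) and quartiles (bar) of the fitted differences, knockout minus wild-type (log2), for the 5 complexes, other gene lists and all features; red dashes give the median within slide 1. The medians of all 5 complexes and of the mitochondrial lists shown lie below that of all features, −0.16. Bars reach above it for complexes II and IV, and the vacuolar proton pump lies at 0.75.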

How the data were processed

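RNA of eGFP-positive cells sorted from fetal adrenal glands was amplified linearly from 1 ng per mouse, labelled with Cy3 and hybridised to single-colour Agilent arrays, 1 mouse per array, per the labels' protocols. Spot intensity in the deposited scanner files came from Agilent Feature Extraction, which subtracted background to give the processed signal, per the file headers. These name version 10.1.1.1 for slides 1 and 2 and 10.5.1.1 for slide 3, and the latter alone is in the submitters' processing notes. In the authors' deposited table of log2 values, no scaling is stated by the labels. At least 99.8% of its probes on every array came within 0.01 of the scaled scanner values used here after each probe was centred on its median. Its columns had medians from −0.17 to 0.90.

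Here, outlier spots were left out, spots of a probe were averaged, and log2 processed signal minus the 75th percentile over the 41174 non-control probes was used. Genes were named through the RefSeq table of GRCm38.p6 (24375 probes), taken from the probe of highest mean, and tested if well above background on at least 4 of 11 arrays. The fit was limma 3.58.1 in R 4.3.3 with genotype and slide as terms, lmFit and eBayes, 7 residual degrees of freedom, two-sided p-values adjusted by Benjamini-Hochberg across the 21107 features, and a threshold of 0.05. The code was tested on simulated data. Each array came from another mouse, and precision is limited by how many arrays there are.

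Members and lists were chosen with earlier results of these data known. Named were Star, all complex II subunits, in each other complex the 3 members of smallest p and both extremes of difference, the isoform families and up to 3 genes per other list. Chosen after their values were seen were Ndufa5, Ndufa9, Ndufb9, Ndufb11, Ndufs3, Atp5c1 and single markers. Replicate numbers were not established as pairs: correlations of deviations for numbers 1 to 4 were 0.18, 0.22, −0.01 and 0.18. Alternatives concerned the slide term, sex, background (normexp, offset 50, on median spot signals because no mean signals were in the files), scaling, filters, probes, array weights, the replicate number and each array left out. Counts and figures used Python 3.11.15, pandas 2.3.3, numpy 2.4.6 and matplotlib 3.10.9; statmod 1.5.0 gave the random block and version 1.17.8 of data.table read the files.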

Additional observations from a re-analysis of the deposited data

Results flagged for a closer look

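In 77 groups of levels examined, 1 array stood apart from the rest of its group in 11. In all 11 it was wild-type array 3 among the 7 wild-type arrays. Chance alone sets apart about 1 group in 20, but the groups share the same arrays. The 11 are therefore not independent cases, and their count was not tested against that rate. It was above the other wild-type arrays for Atp5j (9.60), Cox4i1 (9.08), Cox6a1 (11.003), Cox6c (10.19), Cox7a2 (9.56), Ndufa4 (8.83), Ndufa8 (8.21), Ndufc1 (8.94) and Ndufs1 (6.93). It was below them for Atp5d (1.61) and Sdhc (0.92). The same array had the lowest 75th percentile of signal and holds the only wild-type levels of slide 2.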

How the results depend on the processing

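The count of features past the threshold in limma, 175, was 1925 with array weights, 402 for features above background on all 11 arrays and 93 with median centring. Further counts were 604 without the slide term, 630 with normexp, 27 with sex as a term and 0 within slide 1. Slide as a random block gave 474, slides 1 and 2 alone gave 535, and fits with 1 array left out gave 10 to 561. Members past the threshold were 0 in the main fit, but 2 with array weights (Cox6a2 and Sdha). They were 1, Cox6a2, without the slide term, with normexp, with quantile normalization, with slide as a random block and from slides 1 and 2 alone. With 1 array left out they were 0 to 1, where the 1 came without wild-type array 4. The replicate number as a block in place of slide gave 186 features, 1 member, Cox6a2, and a median of −0.71; the numbers are not established as pairs.

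The members' median, −0.75, was −0.20 within slide 1, −1.58 within slide 2 and −0.92 to −0.20 with 1 array left out, the latter without wild-type array 3. Within slide 2 the medians were −1.59 for complex I, −1.68 for complex III, −1.41 for complex IV, −1.59 for complex V and −1.58 for the assembly factors. Complex IV was at −0.0073 within slide 1 and at −0.78 to −0.0073 with 1 array left out, and complex II at 0.018 without the slide term. Scaling to the percentile over detected probes moved the median of all features from −0.16 to −0.02 and that of members to −0.61, and quantile normalization moved them to −0.08 and −0.43. The members' median was −0.33 with array weights and −0.40 without the slide term.

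Star, short of the threshold at −4.70, passed with array weights (−4.67), above background on all arrays (−4.70), with all probes averaged (−5.04), median centring (−4.66), normexp (−4.55), the replicate block (−4.69), a robust prior (−4.70), slide as a random block (−3.99) and slides 1 and 2 alone (−4.70), and ran from −5.08 to −4.37 with 1 array left out, passing without wild-type array 4 (limma adjusted p = 0.0108) and without array 6 (0.0472), and with an adjusted p of 0.515 without array 3. Of 56 other named genes 46 kept their sign in every setting. With array weights it turned for Sdhb (−0.28), Ndufa10 (−0.18), Uqcrc1 (0.35), Atp5g2 (−0.14), Cox6b2 (0.19) and Cox8a (0.033). Within slide 1 it turned for Sdhb (−0.34), Ndufa10 (−0.31), Uqcrc1 (0.46), Atp5g2 (−0.14), Cox6b2 (0.21) and Cox8a (0.15), and within slide 2 for Atp5g1 (0.066). With the replicate block it turned for Sdhb (−0.24), Ndufa10 (−0.18) and Atp5g2 (−0.015). Without the slide term it turned for Sdhc (−0.085), Sdhd (0.12), Atp5g1 (0.14) and Atp5g2 (−0.045). With sex as a term it turned for Ndufa10 (−0.054), Uqcrc1 (0.014) and Cox8a (0.10), with quantile normalization for Uqcrc1 (0.067) and Cox8a (0.15), and with normexp for Cox8b (−0.25). With 1 array left out the ranges were −0.34 to 0.33 for Sdhb, −0.31 to 0.40 for Ndufa10, −0.49 to 0.46 for Uqcrc1, −0.41 to 0.052 for Atp5g1, −0.14 to 0.59 for Atp5g2, −0.77 to 0.21 for Cox6b2 and −0.38 to 0.15 for Cox8a. The causes were not tested. The fits from slides 1 and 2 alone and the test between slides were chosen after seeing the data.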

Other observations

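Lists of further cell types that the sort could hold gave these values. The 10 stromal and capsule markers had a median difference of 1.26, with 9 higher and 0 past the threshold in limma. Of them 3 were higher at an unadjusted p under 0.05, against 8.37% of features. The summed level of these markers ran from 8.44 to 11.2 in wild-type and from 9.56 to 10.8 in knockout arrays. The 10 endothelial markers had a median of 0.79, or 0.16 within slide 1, with 0 past the threshold and 0 at an unadjusted p under 0.05 in limma. The 10 tested erythroid markers had a median of −0.43, or 0.13 within slide 1, with 0 past the threshold in limma. At an unadjusted p under 0.05 there was 1 in each direction, where 10% of all features were lower and 8.37% higher. The chromaffin and macrophage lists had medians of −1.07 and 3.02, or −0.997 and 1.85 within slide 1.

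Wild-type arrays differed among themselves in these lists. The chromaffin markers' median deviation from their own median over arrays was 2.24, 2.49 and 2.15 on wild-type arrays 5, 6 and 7 and −0.61 on wild-type array 4 of the same slide. On these arrays the steroidogenic markers lay at −1.40, −1.31 and −0.46, against 1.80 on wild-type array 4. The respiratory chain members lay at 0.14, −0.14 and −0.27 on wild-type arrays 5 to 7 and at 0.57 on wild-type array 4. On wild-type arrays 1, 2 and 3 the order differed. There the steroidogenic markers lay at 1.23, 2.00 and 0.51 and the respiratory chain members at 0.00, 0.13 and 1.19. The part of these markers in the members' levels was not tested.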
